A study of Mus musculus with 6 samples.

Results

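Long intergenic noncoding RNAs (lincRNAs) are transcripts of genes that lie apart from protein-coding genes and have no annotated protein product. They were taken as the rows of the deposited hippocampal table whose gene type was given as lincRNA, 309 of 15388 genes. They were compared between the supernatant of hippocampal homogenate and a pull-down aimed at ribosomes of microglia. The samples came from 3 Tam-induced Cx3cr1-cre/ERT2+; NuTRAP+ mice, numbered 201, 207 and 208, in which Cre under the control of the Cx3cr1 gene switches on an EGFP-tagged ribosomal protein in Cx3cr1-expressing cells once tamoxifen (Tam) is given. Mice received Tam for 5 days at about 3 months of age, and tissue was collected 3 to 4 weeks later. Each mouse gave 1 Input library, made from the supernatant of the detergent homogenate after centrifugation, and 1 Positive library, made from the RNA held on beads by an antibody to GFP (translating ribosome affinity purification, TRAP). All 6 libraries therefore share the genotype and the Tam treatment, and the fractions differ in the pull-down alone. Cx3cr1 also drives Cre in macrophages of the brain borders. The antibody is directed at ribosomes that carry the tag, while the Input holds RNA of every hippocampal cell type. Neuronal and astrocyte markers were abundant in the Positive fraction too, with values given below.

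LincRNAs differ widely in what they do. Some stay in the nucleus, where they organise chromatin or nuclear bodies, as Neat1 does for paraspeckles and Malat1 for splicing factor speckles. Others act in the cytoplasm as decoys for proteins or microRNAs, and many serve as precursors from whose introns or exons microRNAs or small nucleolar RNAs are cut. A pull-down of ribosomes enriches RNAs that ribosomes hold, so a lincRNA can be present in a tagged cell and still be rare in the pull-down. Both fractions of a mouse came from the same homogenate, so they do not differ in the cells that went in. In these bulk fractions, a lower level in tagged cells than in the other cells and less RNA on ribosomes cannot be told apart.

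The libraries held between 14879734 and 17757918 estimated reads over the genes of the table. All 8 microglial markers rose in the Positive fraction, with summed levels of 4393 to 4769 scaled reads in Input and 86823 to 128005 in Positive, where scaled reads are estimated reads divided by the size factor of the library. All 5 border macrophage markers and all 4 endothelial markers rose as well, and all 6 oligodendrocyte markers fell, from 43527 to 48405 summed scaled reads in Input to 9368 to 12096 in Positive. The 6 neuronal markers summed to 86681 to 99419.9 scaled reads in Input and 93679.5 to 110427 in Positive, with 1 called higher and none lower, also at an unadjusted p under 0.05 and in DESeq2. Both markers of oligodendrocyte precursors fell (summed 1191 to 1235 scaled reads in Input, 328 to 554 in Positive), as did both erythroid markers (2359 to 3477 and 442 to 917). Of 6 astrocyte markers, 1 rose and 2 fell (42113 to 45228 and 44643 to 52841). Of 3 ependymal and choroid plexus markers, 1 fell and none rose (25291 to 34136 and 5931 to 7429), and the 3 mural markers were not called (1315 to 1602 and 1119 to 2106). Of 3 monocyte markers, 1 had a row and rose (2.10 to 12.2 and 20.8 to 24.7), and the 3 neutrophil and 4 lymphocyte markers had no row in the table. The part of cell types other than microglia in the results on lincRNAs was not tested.

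LincRNAs were mostly lower in the pull-down than in the Input. Of 303 lincRNAs tested, 160 fell and 12 rose in the Positive fraction, at an adjusted p under 0.05 in edgeR's quasi-likelihood test with Benjamini-Hochberg adjustment over all 15343 genes tested. Over all genes, 22% fell, 24% rose and 46% were called in either direction, against 52.8% and 3.96% of lincRNAs that fell and rose. Counts in smaller groups of lincRNAs below are to be read beside these shares. The median log2 fold change of Positive over Input was -0.66 over the lincRNAs, -0.01 over all genes and 0.01 over the 13785 protein-coding genes tested, so that the median lincRNA stood at 63.2% of its Input level. Within the animals, the median lincRNA difference was -0.61, -0.60 and -0.75 on the log2(scaled reads + 1) scale in mice 201, 207 and 208, and the median protein-coding difference was 0.01, 0.02 and 0.03. All 160 lincRNAs that fell were lower in each of the 3 mice, and all 12 that rose were higher in each. The calls were made on the same libraries and largely imply this agreement, so it adds no support to them. The 3 Positive libraries lay below all 3 Input libraries for 191 of 303 lincRNAs, beside 27.5% of all genes.

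**Figure D1:**
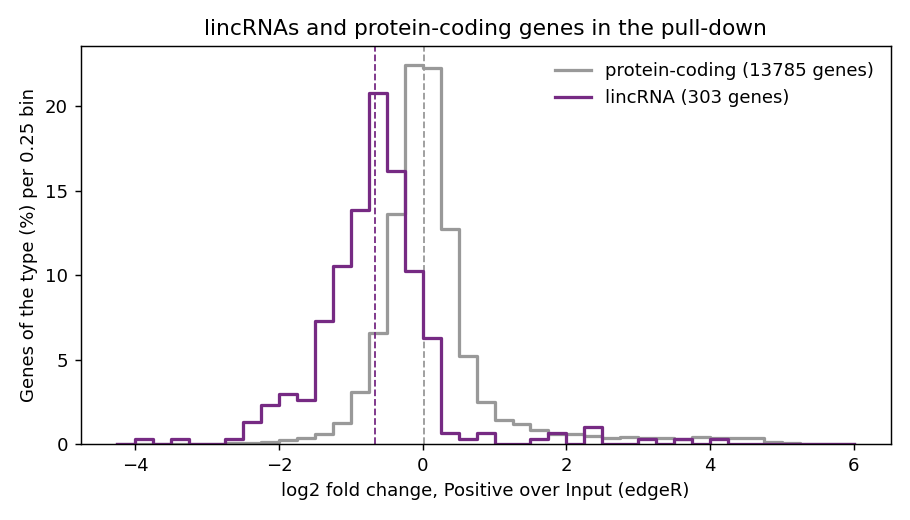
Share of genes of each type (vertical axis, in % per bin of 0.25) by log2 fold change of Positive over Input (horizontal axis) for 303 lincRNAs and 13785 protein-coding genes, with dashed lines at the medians. The lincRNA curve is centred at -0.66 and the protein-coding curve at 0.01, and few lincRNAs lie in the long right arm.

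The table itself lists only genes that reached 20 reads in all libraries of at least 1 fraction, which bears on lowly expressed members. Of the 303 lincRNAs, 190 passed the read minimum in both fractions, and 4 of these rose and 97 fell. Their median log2 fold change was -0.55, or 68.2% of Input. A further 101 passed through the Input libraries alone, and all had a log2 fold change below 0. Of these, 63 fell, and the median was -1.01, a direction that the filter itself favours. The remaining 12 passed through the Positive libraries alone, and 8 of these rose. Among lincRNAs that averaged 200 or more scaled reads over the 6 libraries, 3 of 61 rose and 41 fell, whereas 2725 of 9994 protein-coding genes in the same band rose and 2033 fell. The 6 lincRNAs left out of the test had under 20 scaled reads in at least 1 library of each fraction.

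As a share of all reads in the table, the 309 lincRNAs made up 1.71%, 1.68% and 1.60% of the Input libraries and 0.928%, 0.819% and 0.726% of the Positive libraries. The Positive mean of 0.825% ± 0.101 (SD, n = 3) was 0.497 times the Input mean of 1.66% ± 0.0540 (SD, n = 3), and the fractions did not overlap (two-sided exact permutation test, p = 0.1, the smallest that 3 against 3 libraries allow). Between 70.3% and 76.7% of these reads came from 5 genes, Meg3, Gm42418, 2900097C17Rik (Norad), Miat and Malat1. The other 304 lincRNAs together held 0.398% ± 0.00307 (SD, n = 3) of Input reads and 0.231% ± 0.0135 (SD, n = 3) of Positive reads. Without Gm42418 and Gm26917, whose reads may be ribosomal RNA as described further on, lincRNAs held a mean of 1.39% of Input reads and 0.643% of Positive reads.

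Among the most abundant lincRNAs, Meg3, Norad, Miat and Cyrano are long transcripts known from neurons or from many cell types, whereas Gm42418, which ranked above Norad by Input reads, and the short Bc1 are of other kinds and are described further on. Meg3, the maternally expressed noncoding RNA of the imprinted Dlk1-Dio3 domain (chr12:109541001-109571726, plus strand; mm10, as all coordinates here), counted 100550.1, 86256 and 84761 scaled reads in the Input libraries of mice 201, 207 and 208 and 38450.5, 41688 and 28474 in their Positive libraries. Every Positive library lay far below every Input library, with means of 90522 ± 8716 in Input and 36204 ± 6888 in Positive (SD, n = 3; log2 fold change -1.32, SE 0.14, edgeR adjusted p = 7.03e-06). Norad, listed as 2900097C17Rik (chr2:156388065-156392979, minus strand), is a cytoplasmic RNA that binds PUMILIO proteins, and it counted 32964, 38131 and 36783 scaled reads in Input and 11362, 13119 and 12465 in Positive. It stood at 34.2% of Input (log2 fold change -1.55, SE 0.10, edgeR adjusted p = 5.04e-08), with little spread among the Positive libraries. Miat (chr5:112213228-112229395, minus strand), a nuclear RNA of neurons, fell from 18076, 18625 and 18279.6 to 7662, 7184 and 5367 scaled reads, again with no overlap between the fractions (log2 fold change -1.44, SE 0.12, edgeR adjusted p = 6.08e-07). Cyrano, listed as 1700020I14Rik, carries a site that directs decay of the microRNA miR-7. Its levels were 6678, 7227 and 6496 scaled reads in Input and 2417, 3264 and 2698 in Positive (log2 fold change -1.28, SE 0.11, edgeR adjusted p = 5.92e-07).

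Malat1 and Neat1, neighbours on chromosome 19 and both retained in the nucleus, received different calls, and the difference between them was not tested. Both fractions came from a centrifuged supernatant, and how much nuclear RNA it kept was not tested, so levels of nuclear RNAs here are not tissue levels. Neat1 (chr19:5824708-5845478, minus strand) had 3522, 3362 and 3177 scaled reads in Input and 2421, 2023 and 1117 in Positive. All 3 Positive libraries were lower, that of mouse 208 the furthest (log2 fold change -0.85, SE 0.19, edgeR adjusted p = 0.0032). Malat1 (chr19:5795690-5802672, minus strand) counted 10319.9, 9742 and 9374 scaled reads in Input against 16749, 12807 and 8963 in Positive. The Positive libraries of mice 201 and 207 lay above all Input libraries and that of mouse 208 below them, and the difference did not pass the test (log2 fold change 0.39, SE 0.17, edgeR adjusted p = 0.072, 95% interval 0.03 to 0.75). With the animal as a block the adjusted p of Malat1 was 0.024 at a log2 fold change of 0.34, and without the Positive library of mouse 208 the log2 fold change was 0.59. Of the 7 lincRNAs on the list of nuclear RNAs (Malat1, Neat1, Meg3, Miat, Jpx, Ftx and Mirg), 5 fell, 2 were not called and none rose (Malat1 had an unadjusted p of 0.036 in edgeR, and DESeq2 called none higher), with a median log2 fold change of -0.85.

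**Figure D2:**
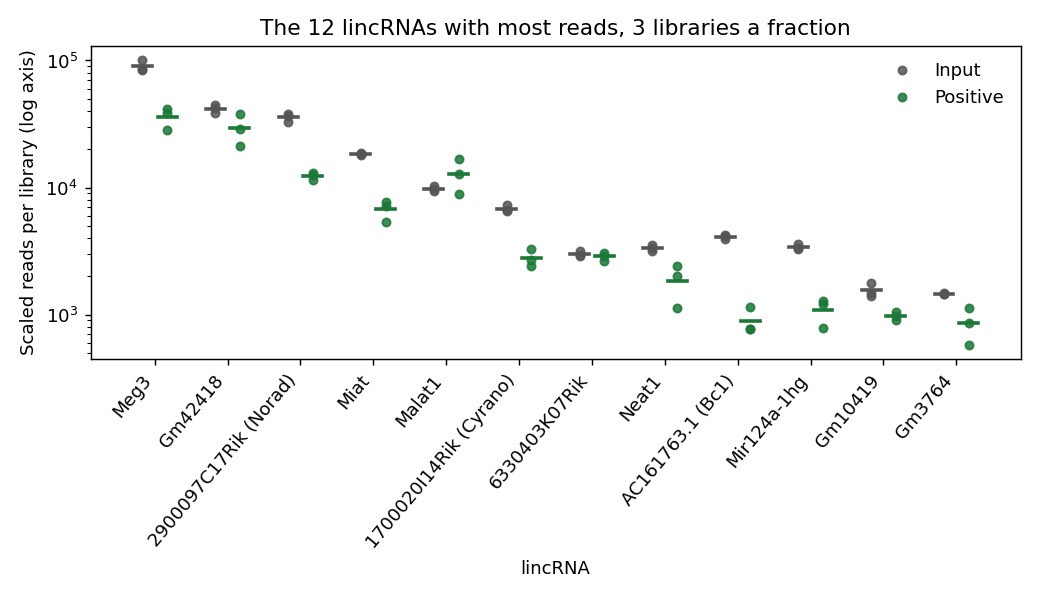
Scaled reads per library (vertical axis, log scale) of the 12 lincRNAs with the most reads, with 3 Input and 3 Positive libraries as points and their means as bars. Green Positive points lie below all grey Input points for 10 of the 12 genes, with Malat1 and 6330403K07Rik as the exceptions.

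The row AC161763.1 (chr7:144914470-144914637, plus strand) is named Bc1 in GENCODE M21 under the same identifier, ENSMUSG00000115783. BC1 is a short cytoplasmic RNA of neurons and their dendrites, made by RNA polymerase III, that represses the initiation of translation. Its transcript of 168 bases is shown here because of an internal A-rich stretch, the longest unbroken run of A (23 bases, positions 77 to 99) being in capitals and A making up 41.7% of the sequence.
Bc1: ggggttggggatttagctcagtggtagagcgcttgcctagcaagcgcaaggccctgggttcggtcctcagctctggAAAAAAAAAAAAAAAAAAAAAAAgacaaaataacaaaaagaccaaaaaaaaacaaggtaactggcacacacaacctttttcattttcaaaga
Bc1 had 3913, 4218 and 4149 scaled reads in Input and 768, 1146 and 775 in Positive, or 21.9% of Input. This was the largest fall among the 10 lincRNAs with the most reads (log2 fold change -2.19, SE 0.13, edgeR adjusted p = 3.18e-08). Per kilobase of exon, Bc1 had the highest Input level of the genes described here, at 24366 scaled reads per kb, above Gm42418 at 22845, Norad at 7316, Meg3 at 5004, Miat at 1972, Malat1 at 1405 and Neat1 at 161. How well a short RNA of this kind was captured by the library preparation was not tested.

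All 3 lincRNA rows that matched the neural list by symbol fell, and Pantr1 was the third beside Miat and Cyrano. Rmst, also on that list, had no row under that symbol. The lincRNA row RMST_1 was not called (log2 fold change -0.63, SE 0.30, edgeR adjusted p = 0.10). Pantr1, transcribed next to the neural transcription factor gene Pou3f3, counted 425, 481 and 469 scaled reads in Input and 256, 239.9 and 231 in Positive (log2 fold change -0.92, SE 0.12, edgeR adjusted p = 3.14e-05). Its neighbour Pou3f3 had a log2 fold change of -0.35. In the same libraries the 6 neuronal marker mRNAs had a median log2 fold change of 0.10.

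Precursors of microRNAs formed another group. When the RefSeq hairpin table was laid over the gene bodies on the same strand, 19 lincRNAs contained 41 hairpins. Of the 19, 11 fell, 8 were not called and none rose in edgeR at an adjusted or unadjusted p under 0.05 or in DESeq2. Over all lincRNAs tested, 52.8% fell and 3.96% rose. The median log2 fold change of the hosts was -0.78 beside -0.66 for all lincRNAs. These libraries count the long precursor and not the mature microRNA. The microRNAs printed next are well-known examples from hosts that fell and are described below, chosen from the 11 hosts rather than in full, with the seed (bases 2 to 8) in capitals, from RefSeq on GRCm38.p6.
miR-9-5p: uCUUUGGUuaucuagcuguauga
miR-9-3p: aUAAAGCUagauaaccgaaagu
let-7d-5p: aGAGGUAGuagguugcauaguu
miR-138-5p: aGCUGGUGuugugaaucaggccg
miR-374b-5p: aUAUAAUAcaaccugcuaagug
miR-101a-3p: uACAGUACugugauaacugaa
miR-129-5p: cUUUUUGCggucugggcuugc
Each of these seeds differs from the others, and miR-9-5p and miR-9-3p are the arms of 1 hairpin.

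The microRNA miR-9, abundant in neural progenitors and neurons, is encoded at 3 loci, and each lay within a lincRNA that fell. Gm3764 holds Mir9-1 (hairpin chr3:88215598-88215686) and counted 1451, 1464 and 1475 scaled reads in Input and 1117, 865 and 579.5 in Positive (log2 fold change -0.78, SE 0.17, edgeR adjusted p = 0.0022). The Input libraries were nearly equal and the Positive libraries spread from mouse 201, the highest, to mouse 208, the lowest. C130071C03Rik holds Mir9-2 (chr13:83738814-83738885) and had 896, 837 and 889 against 530.4, 509.6 and 484 scaled reads (log2 fold change -0.78, SE 0.09, edgeR adjusted p = 1.24e-05). Mir9-3hg holds Mir9-3 (chr7:79505264-79505353) and had 549, 418 and 459 against 275, 262 and 356 (log2 fold change -0.68, SE 0.15, edgeR adjusted p = 0.0022). In each of the 3 hosts no Positive library reached the lowest Input library, and the Positive means were 58.4%, 58.1% and 62.6% of Input.

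Other microRNA hosts fell further. The host of let-7d, 6720427I07Rik (chr13:48535523-48537822, minus strand), had 125, 104 and 133 scaled reads in Input and 20.6, 33.5 and 18.7 in Positive, which was the largest fall among called lincRNAs that averaged 50 or more scaled reads (log2 fold change -2.30, SE 0.26, edgeR adjusted p = 1.15e-05). The let-7 family holds back growth and pluripotency genes in differentiated cells. C78859, which contains Mir138-2, a hairpin of miR-138, a microRNA known from dendrites, had 621, 560.0 and 583 against 185, 181 and 149.6 (log2 fold change -1.77, SE 0.12, edgeR adjusted p = 1.18e-07). Both brain-specific hosts named after miR-124 fell as well, Mir124a-1hg from 3582, 3312 and 3322 to 1271, 1202 and 791 scaled reads (log2 fold change -1.65, SE 0.14, edgeR adjusted p = 7.64e-07) and Mir124-2hg from 456, 504 and 588 to 144, 166 and 101 (log2 fold change -1.91, SE 0.17, edgeR adjusted p = 1.50e-06). No hairpin was placed inside either gene by the overlay, so they are not among the hosts counted above. In all of these hosts the fractions were separated by a wide gap.

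Further hosts differed in the size of the change and in their call. E130102H24Rik (miR-101a) went from 54.1, 58.3 and 71.3 to 17.5, 27.0 and 24.9 scaled reads (log2 fold change -1.39, SE 0.27, edgeR adjusted p = 9.56e-04), and the A230057D06Rik row with 5 hairpins of the miR-344 family had a log2 fold change of -1.79 ± 0.26 (SE). Mir670hg, which holds miR-670 and 1 of the 2 loci of miR-129, fell by less (log2 fold change -0.87, SE 0.28, edgeR adjusted p = 0.022), and its adjusted p was 0.064 to 0.079 without the Input library of mouse 201 or 208 or the Positive library of mouse 201. Gm3294, with the other miR-129 locus, did not pass the test (log2 fold change -0.82, SE 0.34, edgeR adjusted p = 0.065) and passed it with the animal as a block (adjusted p = 0.017). Mirg, which lies downstream of Meg3 and holds 14 hairpins, behaved likewise. It counted 313, 321 and 258 scaled reads in Input and 307, 216 and 129 in Positive, with the Positive library of mouse 201 inside the Input range (log2 fold change -0.45, SE 0.23, edgeR adjusted p = 0.13), and had an adjusted p of 0.018 with the block. Without the Positive library of mouse 201 the log2 fold change of Mirg was -0.78 and that of Gm3294 was -1.32.

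**Figure D3:**
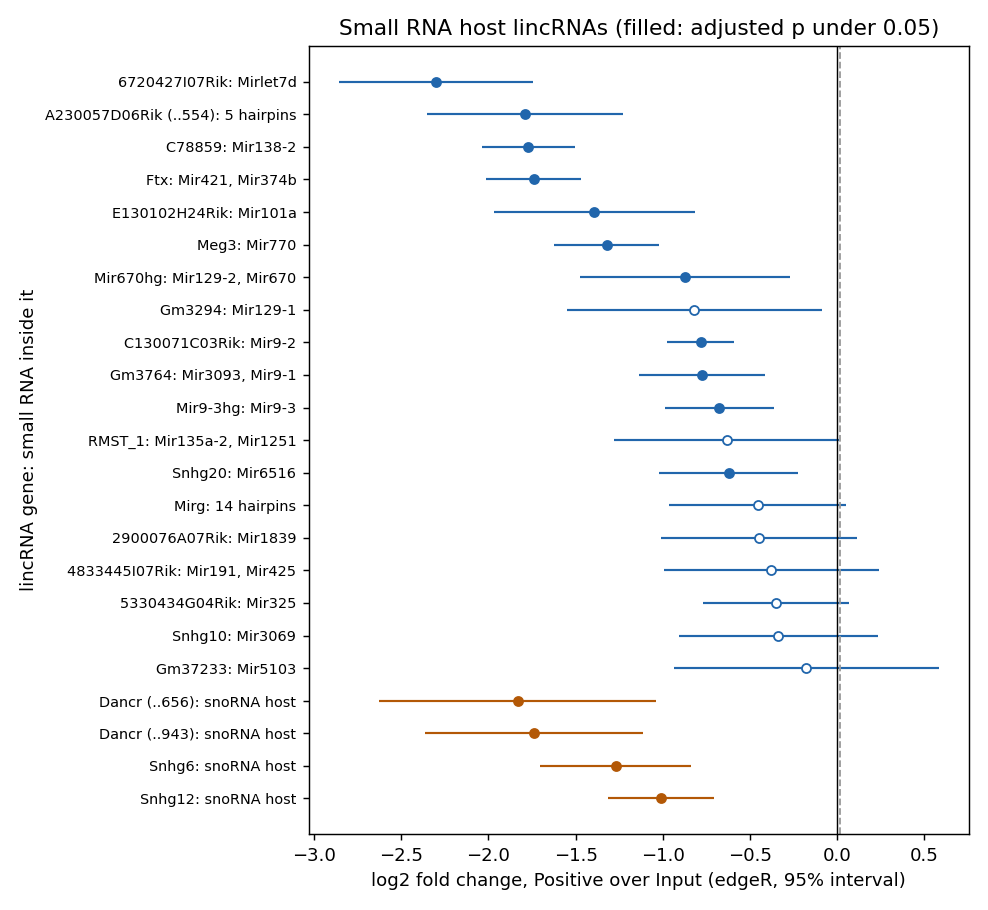
Log2 fold change of Positive over Input with its 95% interval (horizontal axis) for 19 lincRNAs that contain microRNA hairpins (blue, hairpins named on the vertical axis) and 4 further rows that host small nucleolar RNAs (orange). Filled circles passed an adjusted p of 0.05, and every point lies left of 0.

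Ftx and Jpx, noncoding genes of the X-inactivation centre, both fell. Ftx, which also holds miR-421 and miR-374b, had 689.6, 777 and 857 scaled reads in Input and 227, 264 and 204 in Positive, or 29.9% of the Input mean (log2 fold change -1.74, SE 0.13, edgeR adjusted p = 1.71e-07). Jpx had 72.4, 76.1 and 115 against 53.6, 49.3 and 50.9 (log2 fold change -0.78, SE 0.24, edgeR adjusted p = 0.017). The Input library of mouse 208 was the highest, and without it the adjusted p was 0.12 at a log2 fold change of -0.53. Over the X chromosome, 3 of 7 lincRNAs fell (42.9%), and none rose in edgeR, also at an unadjusted p under 0.05, or in DESeq2. Of all lincRNAs tested, 52.8% fell and 3.96% rose.

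Hosts of small nucleolar RNAs, which guide the modification of ribosomal RNA, are spliced transcripts whose introns carry the small RNAs and whose exons are often short-lived. Of the 6 rows on that list, 5 fell, with Snhg10 the row that was not called (log2 fold change -0.34, SE 0.26, edgeR adjusted p = 0.31). Snhg12 counted 320.3, 333 and 368 scaled reads in Input and 197, 154 and 156 in Positive (log2 fold change -1.01, SE 0.14, edgeR adjusted p = 7.97e-05), and Snhg6 counted 131, 141 and 133 and 49.4, 68.8 and 48.8 (log2 fold change -1.27, SE 0.20, edgeR adjusted p = 2.10e-04). The fractions did not overlap for either gene. Dancr, a host known to keep progenitor cells undifferentiated, has 2 rows under separate identifiers, both at low levels and both lower in Positive, with log2 fold changes of -1.74 ± 0.29 and -1.83 ± 0.37 (SE). Reads shared between the 2 rows may have been split by the counting, so each value is uncertain. Snhg20 fell from 272, 329 and 295 to 239, 208 and 135 scaled reads (log2 fold change -0.62, SE 0.18, edgeR adjusted p = 0.015), a smaller change, and had an adjusted p of 0.066 without the Input library of mouse 207.

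The 4 lincRNAs on the list of broadly expressed genes (Norad, Cyrano, Pvt1 and Epb41l4aos) all fell. Pvt1, downstream of the proto-oncogene Myc on the same strand, counted 149, 169 and 157 scaled reads in Input and 116, 94.9 and 106 in Positive (log2 fold change -0.59, SE 0.16, edgeR adjusted p = 0.011). Myc itself rose, with a log2 fold change of 1.19 ± 0.19 (SE). Epb41l4aos went from 83.6, 123 and 122 to 45.3, 49.3 and 40.5 (log2 fold change -1.28, SE 0.23, edgeR adjusted p = 5.19e-04).

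The 12 lincRNAs that rose were a small and mostly lowly expressed group. Of the 303 lincRNAs, 6 rose by more than 5-fold, where 3.75% of all genes tested did so, and 3 did so without the Positive library of mouse 207. Of these 6, 5 had passed the read minimum through the Positive libraries alone. AU020206 (chr7:75769038-75782099, minus strand), a noncoding RNA known from macrophages, was the most abundant of those with large changes, with 36.7, 47.0 and 59.8 scaled reads in Input and 429, 513 and 338 in Positive. Each Positive library held several times the reads of every Input library, an 8.92-fold rise (log2 fold change 3.16, SE 0.21, edgeR adjusted p = 6.85e-08). Gm5086 (chr13:97559971-97583996, plus strand) went from 12.2, 5.64 and 14.7 to 133, 157 and 109 scaled reads, a 12.3-fold rise (log2 fold change 3.62, SE 0.31, edgeR adjusted p = 8.68e-07). AW112010, an interferon-responsive transcript of immune cells that is annotated as noncoding but known to be translated in macrophages, went from 2.04, 13.2 and 11.5 to 49.4, 56.7 and 33.2 (log2 fold change 2.36, SE 0.43, edgeR adjusted p = 7.22e-04). Mirt1, the third lincRNA on the immune list, did not differ beyond its spread (log2 fold change 0.07, SE 0.23, edgeR adjusted p = 0.83, 95% interval -0.42 to 0.56), and its sign changed under 3 alternatives.

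Gm38843 (chr6:82803769-82805083, minus strand) had the highest fitted log2 fold change of all lincRNAs, 4.19 ± 0.55 (SE). It counted 4 reads over the 3 Input libraries and 80 over the 3 Positive libraries. The ratio of the summed reads per size factor was 19.9 (exact 95% interval 7.49 to 74.9, counting error only), and the fitted log2 fold change was 3.60 without the Input library of mouse 207. Its nearest protein-coding gene, 29.3 kb away on the same strand, is Hk2, which encodes a hexokinase and had a log2 fold change of 3.36 ± 0.16 (SE). Another 3 lincRNAs with few reads, 2310040G24Rik, Gm10384 and BC043934, rose with log2 fold changes of 2.42 ± 0.34, 2.41 ± 0.54 and 1.99 ± 0.35 (SE), and no Input library of these genes held more than 10.5 scaled reads. Without the Input library of mouse 208 the log2 fold change of Gm10384 was 3.16.

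Smaller rises were seen in 4 lincRNAs. Gm42031 counted 467, 397 and 411 scaled reads in Input and 733, 848 and 683 in Positive (log2 fold change 0.83, SE 0.11, edgeR adjusted p = 5.48e-05), the clearest of these by reads. Gm16576 lies 0.162 kb from Sun2, which encodes a nuclear envelope protein, on the opposite strand, and the gene pair rose together, with log2 fold changes of 1.85 ± 0.39 and 1.41 ± 0.12 (SE). Gm26778 overlaps Kctd12 on the opposite strand (0.98 ± 0.30 and 1.69 ± 0.11), and its adjusted p of 0.018 was 0.06 to 0.069 without the Input library of mouse 201 or 207 or the Positive library of mouse 207 and 0.06 in DESeq2, at log2 fold changes of 0.86 to 0.98. Gm43055 (0.73 ± 0.17) overlaps Ythdc1 on the same strand, so that its reads and those of Ythdc1 cannot be fully told apart.

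**Figure D4:**
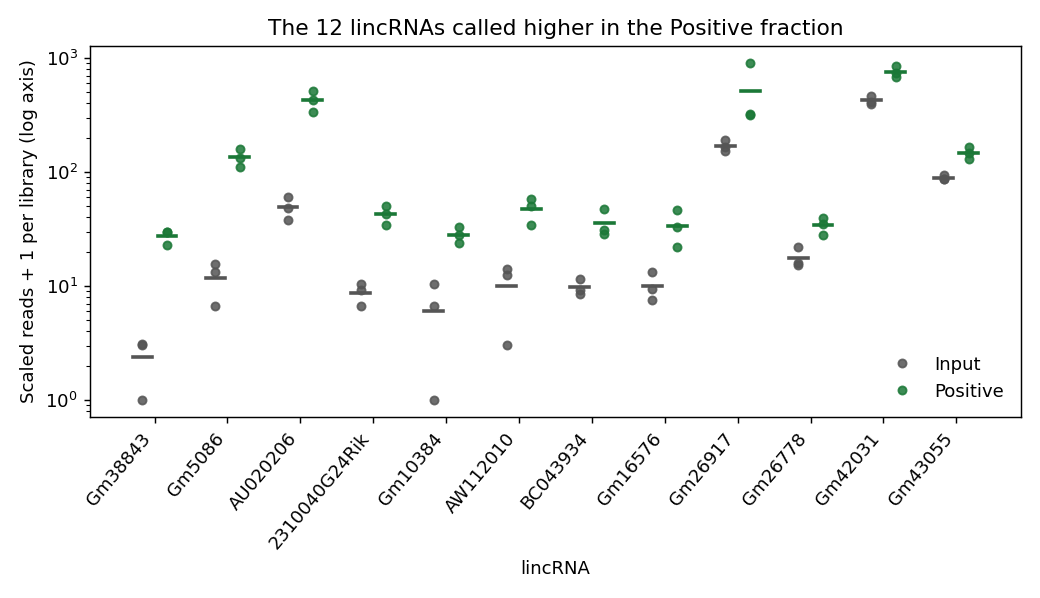
Scaled reads + 1 per library (vertical axis, log scale) for the 12 lincRNAs called higher, ordered by log2 fold change, with 3 Input points (grey), 3 Positive points (green) and bars at the means. No Input point reaches a Positive point of the same gene, and 7 of the 12 genes stay under 60 scaled reads in every library.

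For the lincRNAs that rose and averaged 50 or more scaled reads, promoters were read from the RefSeq table for GRCm38.p6 (250 bases before to 50 bases after the start), which held 3 of them. They are shown because PU.1, a transcription factor that microglia and macrophages depend on, binds purine-rich ETS elements. The searched cores GAGGAA and GGAAGT, on either strand, are in capitals where they occur.
AU020206 (chr7:75782071-75782370, minus strand): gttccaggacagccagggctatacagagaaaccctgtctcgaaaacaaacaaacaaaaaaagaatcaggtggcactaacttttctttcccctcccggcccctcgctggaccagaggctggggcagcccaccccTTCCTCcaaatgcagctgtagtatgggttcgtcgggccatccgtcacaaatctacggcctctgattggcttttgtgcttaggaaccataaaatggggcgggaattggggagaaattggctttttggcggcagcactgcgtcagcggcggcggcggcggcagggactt
Gm5086 (chr13:97559750-97560049, plus strand): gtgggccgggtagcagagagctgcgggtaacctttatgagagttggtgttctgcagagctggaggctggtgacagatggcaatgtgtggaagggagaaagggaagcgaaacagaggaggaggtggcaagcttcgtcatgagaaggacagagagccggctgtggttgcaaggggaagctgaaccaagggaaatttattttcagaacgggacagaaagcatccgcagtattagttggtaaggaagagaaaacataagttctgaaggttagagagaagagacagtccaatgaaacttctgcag
Gm42031 (chr8:85131765-85132064, minus strand): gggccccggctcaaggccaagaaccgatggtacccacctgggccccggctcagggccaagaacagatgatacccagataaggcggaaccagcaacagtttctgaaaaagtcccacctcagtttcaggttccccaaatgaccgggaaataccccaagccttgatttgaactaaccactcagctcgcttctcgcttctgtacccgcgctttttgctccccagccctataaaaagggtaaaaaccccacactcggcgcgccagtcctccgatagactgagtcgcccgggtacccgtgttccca
GAGGAA occurred once in AU020206, on the opposite strand, and neither core occurred in the others. The first 4 promoters found for lincRNAs that fell (AC161763.1, Gm20045, Ftx and Fam120aos) held GAGGAA in 2 cases and GGAAGT in none. Of all 32817 promoters in the table, 28.3% held GAGGAA, 23.8% held GGAAGT and 43.4% held either, and of the 161 promoters of the lincRNA rows 36.6% held either. A match is only a match of letters.

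Some rows need care because of what their reads are. Gm42418 (chr17:39846958-39848788, plus strand) and Gm26917 (chr17:39843013-39846341, plus strand) lie in a region of chromosome 17 that is homologous to ribosomal RNA, so their reads may come from ribosomal RNA elsewhere and are uncertain. They moved in opposite directions. Gm42418 had 42064, 44645 and 38777 scaled reads in Input and 37875, 21088 and 28927 in Positive (log2 fold change -0.51, SE 0.16, edgeR adjusted p = 0.022), and its adjusted p was 0.064 to 0.085 without the Input library of mouse 201 or 207 or the Positive library of mouse 207, and 0.077 in DESeq2. Gm26917 had 189.7, 165 and 151 against 906, 319 and 315 (log2 fold change 1.60, SE 0.34, edgeR adjusted p = 0.0019), and without the Positive library of mouse 201 its log2 fold change was 0.91. In both genes the Positive library of mouse 201 was the highest of its fraction. 6330403K07Rik, typed as lincRNA in the table and as protein-coding in GENCODE M21, counted 2889.8, 3166 and 2933 scaled reads in Input and 2869, 2664 and 3074 in Positive, with overlapping fractions (log2 fold change -0.06, SE 0.08, edgeR adjusted p = 0.55, 95% interval -0.24 to 0.11). 1810058I24Rik, known to encode a mitochondrial micropeptide, had 199.9, 222 and 256 against 199.8, 210.2 and 209.8 (log2 fold change -0.13, SE 0.14, edgeR adjusted p = 0.48, 95% interval -0.43 to 0.17). With AW112010, it makes up the 2 members of the micropeptide list, and neither fell, also at an unadjusted p under 0.05 in edgeR and in DESeq2. AW112010 passed the read minimum through the Positive libraries alone, so its direction was largely fixed by that filter.

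In all, 131 lincRNAs were not called, of which 110 had a log2 fold change below 0. For 17 of the 131 the whole 95% interval lay between -0.5 and 0.5, so that larger differences were outside the interval. Among these were B230209E15Rik (-0.04, interval -0.32 to 0.25), AC164441.1 (0.02, interval -0.27 to 0.31) and AI504432 (0.03, interval -0.24 to 0.31), which were named after their values were seen, as examples of abundant members with little difference.

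A fall of more than 5-fold was seen in 5 lincRNAs, against 0.3% of all genes tested, and all 5 had passed the read minimum through the Input libraries alone. Without the Positive library of mouse 207 there were 11, and with total-count scaling 8. Gm37584 had 95 reads over the Input libraries and 6 over the Positive libraries, a ratio of Input to Positive of 15.9 (exact 95% interval 7.04 to 44.4, counting error only). Gm26764 had 79 and 7 reads, a ratio of 11.3 (5.25 to 29.1). The fitted log2 fold change of Gm37584, -3.91, was -4.85 without the Positive library of mouse 201 and -3.30 without that of mouse 207, and that of Gm26764, -3.44, was -4.06 without the Positive library of mouse 201. With more reads, Gm21781 (log2 fold change -2.25, SE 0.21, edgeR adjusted p = 1.81e-06), Gm20045 (log2 fold change -2.11, SE 0.19, edgeR adjusted p = 1.53e-06), AC165273.1 (log2 fold change -1.86, SE 0.30, edgeR adjusted p = 2.67e-04) and Fam120aos (log2 fold change -1.53, SE 0.23, edgeR adjusted p = 1.43e-04) were, beside the genes named above, among the 12 largest falls at an average of 50 or more scaled reads.

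The nearest protein-coding gene gave each lincRNA a comparison in the same stretch of genome. A tested protein-coding gene lay within 100 kb of 241 lincRNAs (230 distinct genes). The lincRNA lay below its neighbour on the log2 scale in 211 of 241 pairs, with a median log2 fold change of -0.67 for the lincRNAs and 0.07 for the neighbours. Of all 303 lincRNAs tested, 270 had a log2 fold change below 0, and the median of all protein-coding genes was 0.01. Pairing with protein-coding genes from elsewhere was not done, so the count cannot tell position from gene type. The median difference of lincRNA minus neighbour was -0.74, and -0.66, -0.72 and -0.86 in mice 201, 207 and 208. Across the pairs, Spearman's rho of the lincRNA and neighbour log2 fold changes was 0.18 and Pearson's r was 0.23, as a description over genes of the same libraries. The 87 lincRNAs on the start side and opposite strand of their neighbour had a median of -0.75, the 53 past its end on the same strand -0.68, the 34 that overlapped it on the opposite strand -0.62, and the 11 that overlapped it on the same strand, where reads may be shared, -0.15.

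Some neighbours were strongly enriched in the pull-down while the lincRNA beside them was not. In 17 pairs the protein-coding gene was called and more than 2-fold higher, and of their lincRNAs 3 rose (Gm38843, Gm16576 and Gm26778), 5 fell and 9 were not called. Miat fell although Cryba4, which encodes a lens crystallin, lay 17.1 kb away on the same strand at a log2 fold change of 4.70 ± 0.34 (SE). D730003I15Rik, 6.42 kb from the stress-induced transcription factor gene Atf3, had 62.2, 42.3 and 67.1 scaled reads in Input and 22.7, 21.4 and 10.4 in Positive (log2 fold change -1.64, SE 0.32, edgeR adjusted p = 0.0012), where Atf3 had a log2 fold change of 1.97 ± 0.23 (SE). Gm29562, 95.6 kb from the apoptosis inhibitor gene Bcl2a1d at 4.12 ± 0.43 (SE), had 318, 385 and 466 scaled reads in Input and 372, 443 and 427 in Positive and was not called (log2 fold change 0.09, SE 0.14, edgeR adjusted p = 0.64). Gm33195, near Cd83, a gene of activated myeloid cells, and Gm42864, near Myo18b, were not called either, at -0.44 ± 0.30 and -0.29 ± 0.29 (SE).

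Lists of genes that mark sorted cell types, which accompany the study, held the neighbours of 13 lincRNAs. Of 4 next to a microglial gene (Hk2, Atf3, Cd83 and Myo18b), 1 rose and 1 fell. Of 5 next to an astrocyte gene, 4 fell, among them Gm11681 near Sox9, the astrocyte transcription factor gene (-1.47 ± 0.37, and -0.69 ± 0.18 for Sox9), and Gm16499, which overlaps Tril (-1.62 ± 0.40). Both lincRNAs next to an oligodendrocyte gene (Neat1 and AC139845.1) fell, while their neighbours Frmd8 and Sema5a had log2 fold changes of 0.67 and 0.76. Of 2 next to a neuronal gene, Gm3510 fell and 4930533N22Rik was not called. The calls of Gm3510, Gm2061 and 4933412O06Rik, the latter pair near astrocyte genes, were lost under some alternatives, while the log2 fold changes kept their sign. For Gm3510 (-1.23), leaving out Input 201, Input 207 or Positive 207 gave adjusted p values of 0.054 to 0.075 at log2 fold changes of -1.22 to -1.03, and without Positive 201 its log2 fold change was -1.97. For Gm2061 (-0.88), leaving out Input 207 or 208 or Positive 201 or 207 gave adjusted p values of 0.052 to 0.073 at -0.85 to -0.77. For 4933412O06Rik (-0.98), leaving out Input 207 or Positive 201 gave 0.053 to 0.079 at -0.88 to -0.82, and DESeq2 gave 0.056 at -0.99. Without Positive 201, Gm11681 had a log2 fold change of -2.06.

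**Figure D5:**
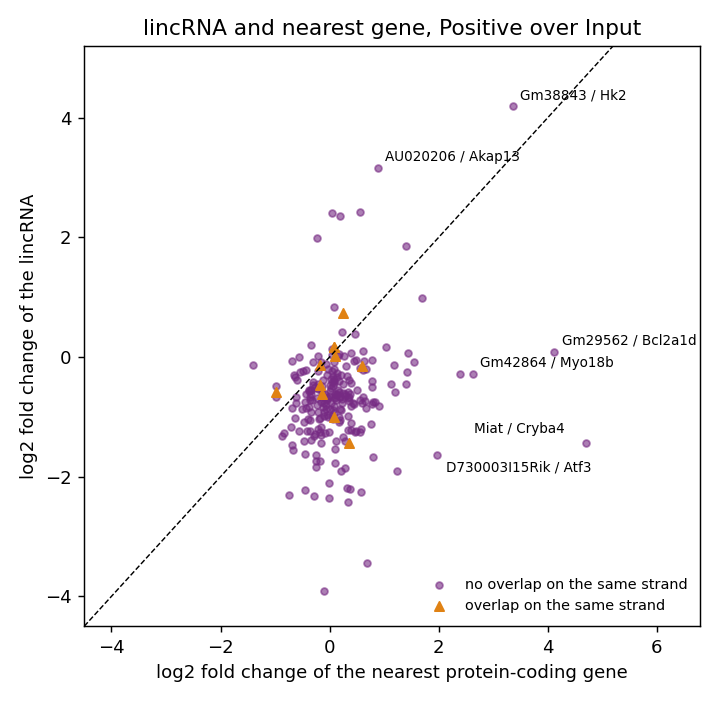
Log2 fold change of each lincRNA (vertical axis) against that of its nearest protein-coding gene within 100 kb (horizontal axis) for 241 pairs, with triangles for pairs that overlap on the same strand and a dashed line at equality. Of the 241 points, 211 lie below the line, and the lincRNAs of the 6 labelled pairs are among those described in the text.

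Transcript structure went little with the difference between fractions. Over 301 lincRNAs with a GENCODE M21 model, Spearman's rho with the log2 fold change was 0.06 for the number of exons, 0.06 for exon length, 0.07 for GC content and 0.18 for the longest open reading frame, as descriptions over genes. Of 80 lincRNAs with 1 exon, 48 fell and 3 rose, and of 221 with more exons, 110 fell and 9 rose, with medians of -0.68 and -0.66. By longest open reading frame, the median was -0.74 for the 32 lincRNAs under 50 codons, -0.69 for the 166 with 50 to 99 and -0.55 for the 103 with at least 100.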

How the data were processed

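Hippocampal RNA of 3 mice was sequenced as 1 Input and 1 Positive library each. Per the study's methods, directional libraries of poly(A)-selected RNA were sequenced as paired ends and aligned to mm10 in Strand NGS. The counting tool is not given in the sources used here, and the submitters' processing notes name DESeq. The values used here are the deposited raw columns, listed by Ensembl gene identifier. The sources do not state their unit, and since most values are not whole numbers they were taken as estimated counts that the authors had not normalized. They are listed for genes with at least 20 reads in all libraries of at least 1 fraction. The authors also deposited log2 values (size-factor scaled, minus the median of the Input libraries), which served only to recover their size factors.

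Estimated counts were rounded, genes with more than 20 scaled reads in all libraries of at least 1 fraction were kept (15343 of 15388), and Positive was compared with Input in edgeR 4.0.16 (R 4.3.3) with relative log expression size factors, the quasi-likelihood test and Benjamini-Hochberg adjustment over all genes (threshold 0.05). A standard error is the absolute log2 fold change divided by the square root of F. Sums and shares over libraries were compared by exact permutation test. Intervals of summed reads cover counting error only. The labels give each mouse 1 library per fraction, so libraries pair by mouse, and deviations from the fraction means correlated at 0.19, 0.06 and 0.12 in the 3 mice. The main comparison had no block, and a fit with the mouse as block was an alternative, as were TMM, total-count and the authors' scaling, other read minimums, DESeq2 1.42.0 and leaving out each library.

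Gene structure and M21 names came from GENCODE M21 (307 of 309 identifiers matched), and promoters and microRNAs from RefSeq (137 lincRNA rows had a promoter). Named lincRNAs are list members, the 12 largest changes in each direction at an average of 50 or more scaled reads, the 10 with most reads, those next to a cell-type gene, and the 5 furthest from their neighbour in each direction. The remaining lincRNAs that rose and the microRNA hosts were named after values were seen. The members and lists were chosen with earlier results of these data known. The 6 lincRNA rows below the read minimum were left out of the test.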

Additional observations from a re-analysis of the deposited data

How the results depend on the processing

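The median log2 fold change of lincRNAs stayed below 0 under every alternative, from -0.72 to -0.61 relative to the protein-coding median, and total-count scaling moved the median of all genes to -0.09. The fit with the mouse as a replicate block called 178 lincRNAs against 172, of which 170 were shared, and beside Malat1, Mirg and Gm3294 it brought 1700048O20Rik and 4930533N22Rik past the threshold (adjusted p = 0.043 and 0.048) and left the other calls of named lincRNAs as they were. Requiring at least 100 reads left 100 lincRNAs, fewer by its construction, of which 70 were called, 5 higher and 65 lower, 2 rose over 5-fold and 0 fell over 5-fold (0 also at an unadjusted p under 0.05 and in DESeq2 over the same genes). The count that fell over 5-fold, 5 in the main analysis, was 8 with total-count scaling and 3 with a mean of at least 20 reads. The Positive to Input ratio of the summed lincRNA share, 0.497, was 0.560 without Meg3, the lincRNA with most reads. It was 0.462 without Gm42418 and Gm26917, whose reads may be ribosomal RNA. DESeq2 called 150 lincRNAs, all among the 172. Leaving out 1 library at a time gave 135 to 160 called lincRNAs, 11 to 13 higher, 124 to 148 lower, 3 to 6 over 5-fold higher, 4 to 11 over 5-fold lower and a median of -0.71 to -0.61. Over the 69 named lincRNAs, counting each lincRNA under each alternative as a case, a call was lost in 23 cases and gained in 15. The sign turned for 2 that were not called, Mirt1 and Gm37233, which ran from -0.21 to 0.22 and from -0.63 to 0.10 when 1 library was left out. Mirt1 (0.07) had a log2 fold change of -0.0062 with total-count scaling, -0.03 without Input 208 and -0.21 without Positive 201. Gm37233 (-0.18) had 0.10 and 0.07 without the same libraries. The cause of these shifts was not tested. Depth limits the lincRNAs under 50 scaled reads, 149 of 303, most.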

Other observations

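Noncoding genes on the same lists but under other gene types were also mostly lower in the pull-down. Of 22 such genes, typed as processed transcript, antisense or sense intronic, 15 fell, 7 were not called and 0 rose in edgeR, also at an unadjusted p under 0.05, or in DESeq2, with a median log2 fold change of -0.87. Over all genes tested, 22% fell and 24% rose. Rian, which follows Meg3 in the Dlk1-Dio3 domain and hosts small nucleolar RNAs, had 9087 ± 622 scaled reads in the Input libraries (SD, n = 3) against 3766 ± 787 in the Positive ones (log2 fold change -1.27, edgeR adjusted p = 5.41e-06). Sox2ot, transcribed across the stem cell gene Sox2, had 475 ± 31.1 scaled reads in the Input libraries (SD, n = 3) against 182 ± 43.6 in the Positive ones (log2 fold change -1.38, edgeR adjusted p = 1.76e-05). Gas5, a growth arrest transcript that hosts small nucleolar RNAs, had 2003 ± 85.1 scaled reads in the Input libraries (SD, n = 3) against 1100.5 ± 187 in the Positive ones (log2 fold change -0.86, edgeR adjusted p = 3.63e-05), and Firre, an X-linked nuclear RNA, had 1455 ± 159 scaled reads in the Input libraries (SD, n = 3) against 738 ± 205 in the Positive ones (log2 fold change -0.98, edgeR adjusted p = 2.90e-04). Snhg11, typed as protein-coding in the table, had 29661 ± 2111 scaled reads in the Input libraries (SD, n = 3) against 12890.1 ± 3519 in the Positive ones (log2 fold change -1.20, edgeR adjusted p = 6.37e-05).

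Among the 7 that were not called, Peg13, an imprinted gene, had 4685 ± 176 scaled reads in the Input libraries (SD, n = 3) against 4429 ± 400.1 in the Positive ones (log2 fold change -0.08, edgeR adjusted p = 0.45). Tug1 had 1293 ± 69.2 scaled reads in the Input libraries (SD, n = 3) against 1229 ± 141 in the Positive ones (log2 fold change -0.07, edgeR adjusted p = 0.55), and the interneuron-associated Dlx6os1 had 181 ± 18.7 scaled reads in the Input libraries (SD, n = 3) against 172 ± 6.68 in the Positive ones (log2 fold change -0.07, edgeR adjusted p = 0.71). Beside these 22 genes, 5 list rows are typed as protein-coding, of which 1 fell (Snhg11), 2 rose and 2 were not called (Tunar and 1500011K16Rik). The rows that rose, Gm10800 and Gm10801, are satellite repeat rows of uncertain origin. Gm10800 had 19.8 ± 7.06 scaled reads in the Input libraries (SD, n = 3) against 108 ± 42.2 in the Positive ones (log2 fold change 2.45, edgeR adjusted p = 7.60e-05), and Gm10801 had 8.47 ± 5.79 against 40.4 ± 20.1 (log2 fold change 2.22, edgeR adjusted p = 0.0022).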
